A study of Mus musculus with 2 samples.

Results

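The macrophage genes described here were 10 of the 19465 genes counted in 2 skin sections, found by their symbols: *Adgre1*, *Cd68* and *Csf1r* as general macrophage genes, *Mrc1*, *Cd209b*, *Cd209d* and *Retnla* as genes of resident macrophages, and *Gpnmb*, *Arg1* and *Cd84* as genes of activation and lipid handling. One section came from an imiquimod (IMQ)-treated *S1pr2 f/f* mouse and one from an IMQ-treated *S1pr2 f/f K14-Cre* mouse. In the latter, Cre under the keratin 14 promoter removes the sphingosine-1-phosphate receptor gene *S1pr2* from keratinocytes, and both mice carried the floxed *S1pr2* alleles. Both were 8 weeks old and received 62.5 mg of 5% IMQ cream, a ligand of Toll-like receptor 7, on the depilated back each day for 7 days. No untreated section was included, so every level below is a level in inflamed skin.

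Spatial sequencing read transcripts from a grid of spots under each section, 1 spot being a small area that can hold several cells. A unique molecular identifier (UMI) stands for 1 captured molecule. The *S1pr2 f/f* section held 1282 spots with 5315351 UMIs (median 3542.5 per spot), and the *S1pr2 f/f K14-Cre* section 981 spots with 2845826 UMIs (median 2319). Levels are given as CPM, the UMIs of a gene per 1000000 UMIs of the same spots. With 1 section per genotype no test between genotypes was possible, and all 95% intervals cover counting error only, not the difference between animals. A difference was called when it reached 2-fold. *S1pr2* itself was counted at 29.0 CPM (154 UMIs) in the *S1pr2 f/f* section and 19.0 CPM (54 UMIs) in the *S1pr2 f/f K14-Cre* section, and in the keratin-rich spots described below at 35 UMIs against 0 UMIs. For 0 of 84 spots the share with a UMI could still be up to 3.57%.

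Macrophages are phagocytes that either seed tissues early and renew themselves there or derive from blood monocytes during inflammation. In the skin they lie mostly in the dermis and the fat beneath it, where the resident cells carry mannose receptor and other lectins and take up debris and lipids. Signals such as interleukin-4 drive an "alternative" state with arginase and *Retnla*, while bacterial products and interferon drive a "classical" state with inflammatory cytokines. The study centred on keratinocytes and T cells, and the comparison here asks how macrophage genes were laid out in the inflamed skin and whether the sections differed in them.

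*Mrc1*, *Cd209b*, *Cd209d* and *Retnla* carry most of the results, and their promoters are shown because *Cd209b*, *Cd209d* and *Retnla* were lower in the *S1pr2 f/f K14-Cre* section over all spots and *Mrc1* was not. *Cd209d* (chr8:3871824-3878548) and *Cd209b* (chr8:3917655-3926841) are neighbours with 39107 bases between them, *Mrc1* lies at chr2:14229414-14332023 and *Retnla* at chr16:48842609-48844461. The 250 bases before each start site follow, 5′ to 3′ on the strand of the gene, from RefSeq in the GRCm38.p6 build, which is the mm10 build named in the labels' processing notes (chr2:14229164-14229413 plus strand, chr8:3926842-3927091 minus strand, chr8:3878500-3878749 minus strand, chr16:48842359-48842608 plus strand). For *Cd209d* the start site of the sequence table lies inside the gene range given above, so the near end of its window overlaps that range. Of the 10 genes, the windows of 7 were searched. *Adgre1* and *Arg1* had no entry, and *Csf1r* was left out. Capitals mark matches on either strand to GAGGAA (core of the box bound by PU.1, the myeloid lineage factor), CACGTG (an E-box), CATGTG (the E-box of the MITF family), TTCNNNNGAA (the spacing of STAT6 sites), TGANTCA (AP-1) and TATAAA (the box bound by TBP, here called the TATA box), and neighbouring matches can overlap.

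Mrc1: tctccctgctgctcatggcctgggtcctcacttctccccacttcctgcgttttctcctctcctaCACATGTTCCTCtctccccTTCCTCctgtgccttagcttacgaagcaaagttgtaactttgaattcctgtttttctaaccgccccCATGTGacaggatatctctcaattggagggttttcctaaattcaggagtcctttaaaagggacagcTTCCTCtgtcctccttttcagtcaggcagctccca
Cd209b: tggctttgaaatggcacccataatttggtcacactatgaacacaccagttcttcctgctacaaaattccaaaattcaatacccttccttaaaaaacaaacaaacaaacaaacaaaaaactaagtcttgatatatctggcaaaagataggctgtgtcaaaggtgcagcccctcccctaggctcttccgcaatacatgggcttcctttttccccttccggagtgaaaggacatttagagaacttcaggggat
Cd209d: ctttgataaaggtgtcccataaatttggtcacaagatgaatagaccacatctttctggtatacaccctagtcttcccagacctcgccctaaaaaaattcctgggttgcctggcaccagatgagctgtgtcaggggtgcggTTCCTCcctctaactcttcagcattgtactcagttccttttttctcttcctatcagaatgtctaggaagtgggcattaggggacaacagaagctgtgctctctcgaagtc
Retnla: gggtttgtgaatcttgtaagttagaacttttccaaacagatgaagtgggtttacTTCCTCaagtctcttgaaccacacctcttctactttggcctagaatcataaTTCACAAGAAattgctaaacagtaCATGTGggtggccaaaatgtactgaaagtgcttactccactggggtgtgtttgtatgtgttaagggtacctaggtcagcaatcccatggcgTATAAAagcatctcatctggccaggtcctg

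*Mrc1* held 3 matches to the PU.1 core, the nearest beginning 35 bases before the start, and 2 to the MITF-family E-box, of which the one beginning 186 bases before the start adjoins a PU.1 core match. *Cd209d* held 1 match to the PU.1 core, and none of the letters searched occurred in the window of *Cd209b*. *Retnla* held one match each to the PU.1 core, the STAT6 spacing, the MITF-family E-box and the TATA box, the last beginning 30 bases before the start. Among 32851 promoters of this length, 23.3% held the PU.1 core, 12.3% the MITF-family E-box, 5.85% the STAT6 spacing and 12.4% the TATA box, so each of these words is common, and a match describes the letters, not a bound site. Aligned end to end, the *Cd209b* and *Cd209d* windows shared 164 of 250 bases (65.6%), against 56.8% to 59.6% for the other pairs of these 4 windows.

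To find the layers of the skin, each spot with at least 500 UMIs was assigned by marker genes that are not among the 10, and 5 kinds of region resulted. They are called by their genes: keratin-rich (318 spots in the *S1pr2 f/f* and 84 in the *S1pr2 f/f K14-Cre* section), collagen-rich (122 and 128), adipocyte-gene-rich (159 and 114), muscle-gene-rich (151 and 283) and hair-gene-rich (10 and 29, too few to compare). Spots were mixed (336 and 309) where the leading marker list was under 1.5 times its share in both sections pooled, or held under 3 UMIs. The 186 and 34 spots with under 500 UMIs were left out of the regions. The keratin-rich share thus differed strongly between the sections, and levels over all spots mix the layers in different proportions. The assignment is soft, with 125 and 74 spots within 10% of the limit.

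**Figure D1:**
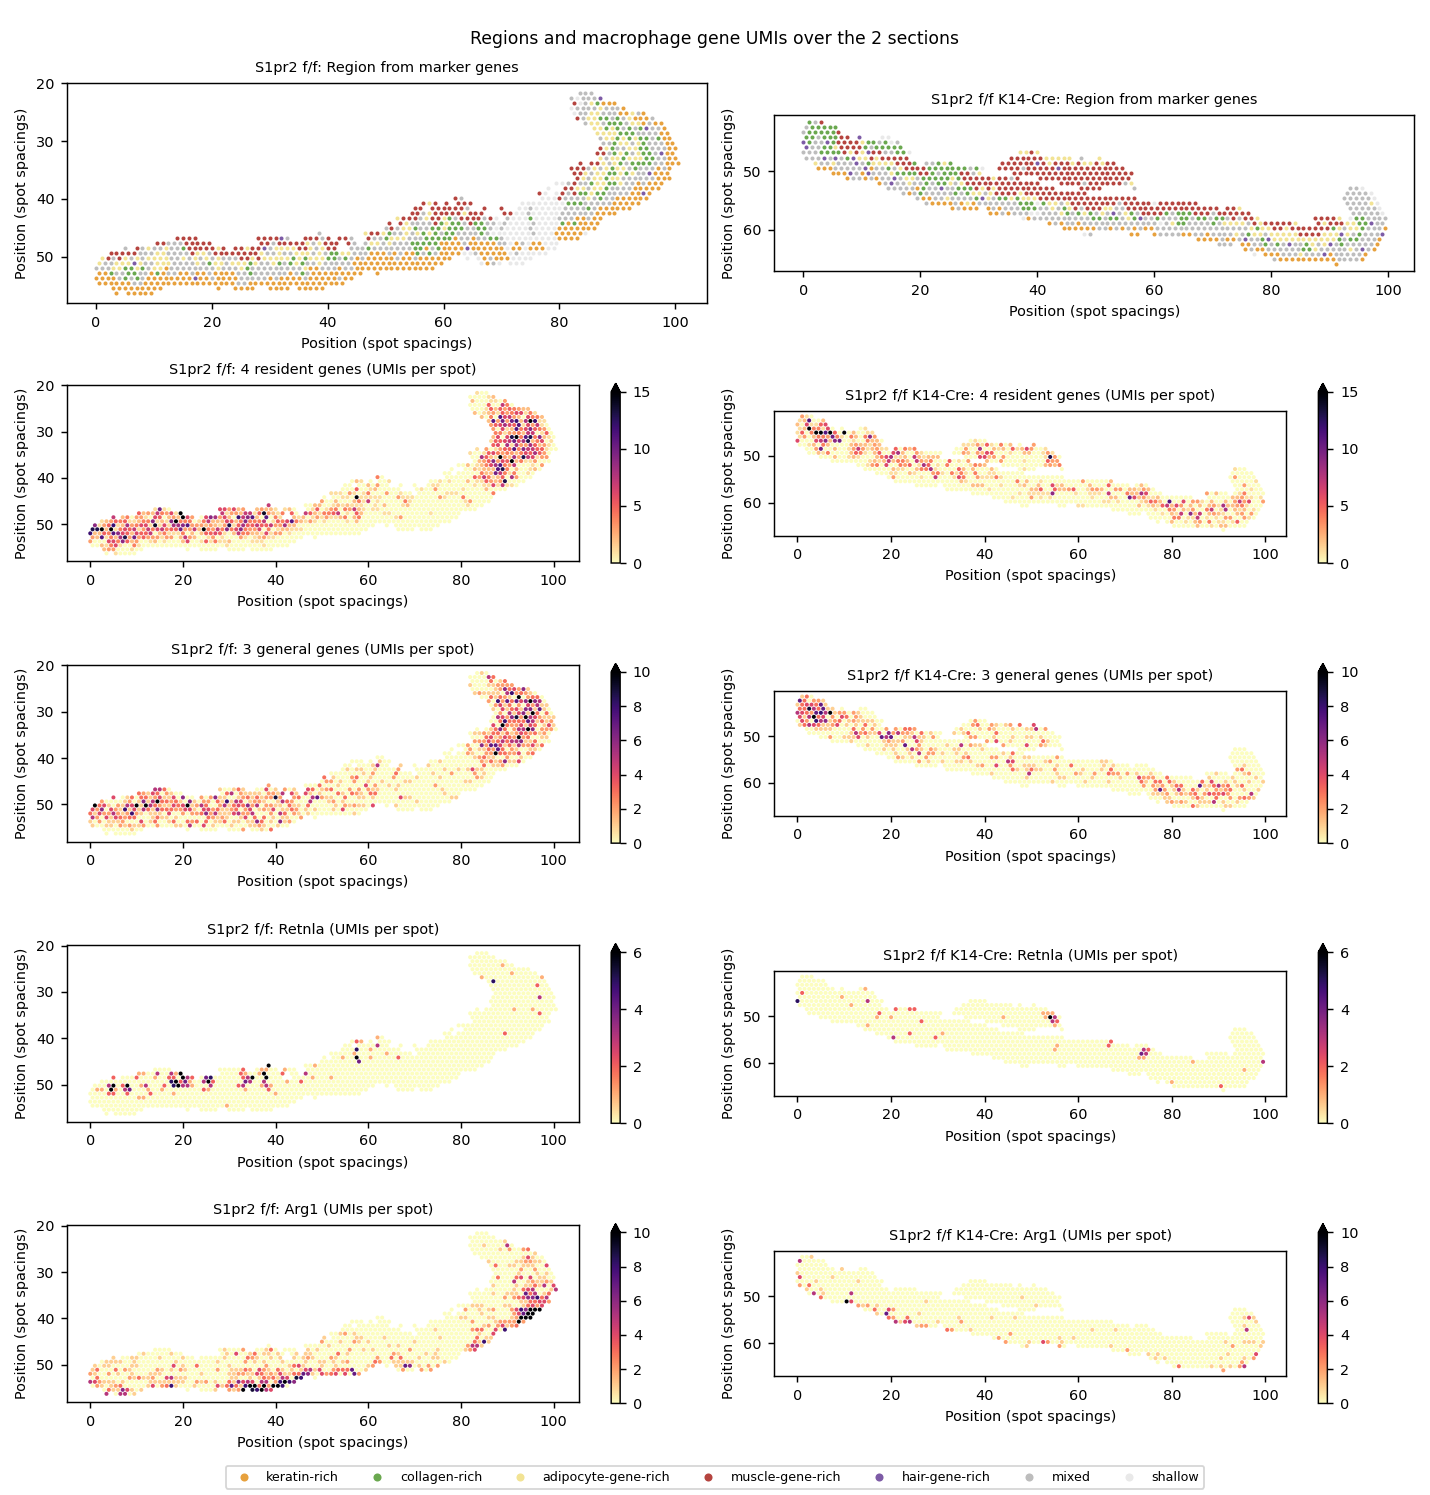
Positions of spots in both sections, in spot spacings along and across the capture area, coloured by region (top row) and by UMIs per spot of the 4 resident genes, the 3 general genes, *Retnla* and *Arg1* (further rows, scales capped as the colour bars show; isolated spots away from the tissue are not drawn). The keratin-rich surface lies along the lower edge, resident and general genes fill the tissue above it, *Retnla* sits at the far edge from the surface in the *S1pr2 f/f* section, and *Arg1* follows the surface.

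The general macrophage genes were found mainly below the epidermis in both sections. *Adgre1*, an adhesion receptor used as the pan-macrophage marker of the mouse, was at 16.3 CPM in keratin-rich, 92.7 in collagen-rich, 87.2 in adipocyte-gene-rich and 27.7 in muscle-gene-rich spots of the *S1pr2 f/f* section, and at 11.4, 78.5, 76.3 and 46.6 CPM in the same order in the *S1pr2 f/f K14-Cre* section. *Cd68*, a glycoprotein of macrophage lysosomes, was at 67.6, 313, 289 and 130 CPM in the first section and at 41.8, 217, 175 and 90.9 CPM in the second. *Csf1r*, the receptor for the survival factors CSF1 and IL-34, was at 50.1, 216, 159 and 116 CPM, and at 22.8, 208, 113 and 82.8 CPM. All 3 thus had the same order of levels in both sections, highest in collagen-rich spots, next in adipocyte-gene-rich spots and lowest in keratin-rich spots, although for *Adgre1* and *Cd68* the first and second places lay within counting error of each other. Summed, the 3 genes were higher in collagen-rich than in keratin-rich spots by 2.21 on the log2 scale (95% interval 1.96 to 2.46; 288 and 246 UMIs) in the *S1pr2 f/f* section and by 2.73 (2.06 to 3.47; 218 and 20 UMIs) in the *S1pr2 f/f K14-Cre* section.

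Of the 4 resident genes, *Mrc1* and *Cd209b* had this order of CPM in both sections, *Cd209d* in the *S1pr2 f/f* section only, and *Retnla* in neither. *Mrc1*, the mannose receptor that takes up glycoproteins, was at 98.6 CPM in keratin-rich, 675 in collagen-rich, 509 in adipocyte-gene-rich and 253 in muscle-gene-rich spots of the *S1pr2 f/f* section. Its levels in the *S1pr2 f/f K14-Cre* section were 38.0, 570, 537 and 338 CPM, so that collagen-rich and adipocyte-gene-rich spots did not differ beyond counting error there (log2 ratio -0.09, -0.37 to 0.19). *Cd209b* and *Cd209d*, lectins of the DC-SIGN family that bind sugars of microbes, were scarce in keratin-rich spots of the *S1pr2 f/f* section (9.81 and 21.8 CPM, from 18 and 40 UMIs) and had 0 UMIs in the 84 keratin-rich spots of the other. They were highest in collagen-rich spots of the *S1pr2 f/f* section, at 153 CPM for *Cd209b* and 200 CPM for *Cd209d*, with adipocyte-gene-rich spots next (99.7 and 183 CPM). For *Cd209d* the first and second places lay within counting error of each other (log2 ratio -0.13, -0.53 to 0.27). Its share of spots with a UMI had the other order, 30.3% of collagen-rich and 42.1% of adipocyte-gene-rich spots, without correction for depth. In the *S1pr2 f/f K14-Cre* section *Cd209b* was at 60.0 CPM in collagen-rich and 53.7 CPM in adipocyte-gene-rich spots. *Cd209d* was at 32.3 CPM in collagen-rich (14 UMIs in 7 spots) and 107 CPM in adipocyte-gene-rich spots (38 UMIs in 12 spots). The log2 ratio was 1.73 (0.82 to 2.73) towards the fat, but it rests on few spots. The spot richest in *Cd209d* in that section held 16 UMIs. Its shares of spots with a UMI were 5.47% (2.23 to 10.9) and 10.5% (5.56 to 17.7), with overlapping intervals. Whether the order of *Cd209d* differed between the sections could therefore not be read.

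*Retnla*, which encodes a small secreted protein induced by interleukin-4 and also known from adipose tissue, had its highest value in muscle-gene-rich spots in both sections, as no other of the 10 did. This first place lay within counting error of another region in each section. In the *S1pr2 f/f* section *Retnla* was at 2.72 CPM in keratin-rich (5 UMIs), 28.0 in collagen-rich (13 UMIs), 138 in adipocyte-gene-rich (100 UMIs; 113 to 168) and 160 CPM in muscle-gene-rich spots (92 UMIs; 129 to 196). Adipocyte-gene-rich and muscle-gene-rich spots were higher than collagen-rich ones by 2.30 (1.47 to 3.26) and 2.51 (1.66 to 3.47) on the log2 scale, whereas *Mrc1* in the same spots was lower than in collagen-rich ones by log2 ratios of -0.41 (-0.63 to -0.18) and -1.41 (-1.71 to -1.13). In the *S1pr2 f/f K14-Cre* section *Retnla* was at 34.2 CPM in keratin-rich (9 UMIs in 4 spots), 20.8 in collagen-rich (9 UMIs), 14.1 in adipocyte-gene-rich (5 UMIs) and 52.5 CPM in muscle-gene-rich spots (45 UMIs). There the muscle-gene-rich spots were again above the collagen-rich ones (log2 ratio 1.34, 0.29 to 2.56). Against keratin-rich spots, whose value rests on very few spots, the interval included 0 (0.62, -0.43 to 1.84). *Retnla* was also the most unevenly spread of the 10 genes in both sections, with 33.9% and 43.2% of its UMIs in the 10 spots that held most of it, against 7.03% and 12.1% for *Mrc1*.

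The other 3 genes followed 3 layouts. *Gpnmb*, a membrane protein of lysosomes and melanosomes found in lipid-laden macrophages and in melanocytes, was at 26.7 CPM in keratin-rich, 263 in collagen-rich, 99.7 in adipocyte-gene-rich and 39.9 CPM in muscle-gene-rich spots of the *S1pr2 f/f* section, and at 19.0, 30.0, 22.6 and 12.8 CPM in the *S1pr2 f/f K14-Cre* section. The collagen-rich peak was thus 3.30 above keratin-rich spots on the log2 scale (2.81 to 3.81) in the first section, and in the second it was 0.66 with an interval that includes 0 (-0.92 to 2.50). *Arg1*, the arginase that turns arginine to ornithine and is made by alternatively activated macrophages and by other cells, keratinocytes among them, ran against the macrophage layout. It was at 426 CPM in keratin-rich, 149 in collagen-rich, 94.1 in adipocyte-gene-rich and 65.9 CPM in muscle-gene-rich spots of the *S1pr2 f/f* section, and at 311, 16.2, 14.1 and 10.5 CPM in the other. *Cd84*, a homotypic receptor of leukocytes, was at 19.1, 69.0, 59.5 and 38.1 CPM and at 19.0, 71.5, 22.6 and 33.8 CPM.

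Counted by the 2-fold rule, 8 of 9 members with at least 20 UMIs were higher in collagen-rich than in keratin-rich spots of the *S1pr2 f/f* section and 1, *Arg1*, was lower, where 26.5% of 10299 genes were higher and 8.76% lower. In the *S1pr2 f/f K14-Cre* section 6 of 7 were higher and *Arg1* lower, against 32% and 15.2% of 7108 genes. The median log2 ratio was 2.50 over the 9 members and 0.35 over all genes in the first section, and 2.78 and 0.32 in the second. *Retnla* had too few UMIs for this count in both sections, and *Cd209d* and *Gpnmb* in the second.

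**Figure D2:**
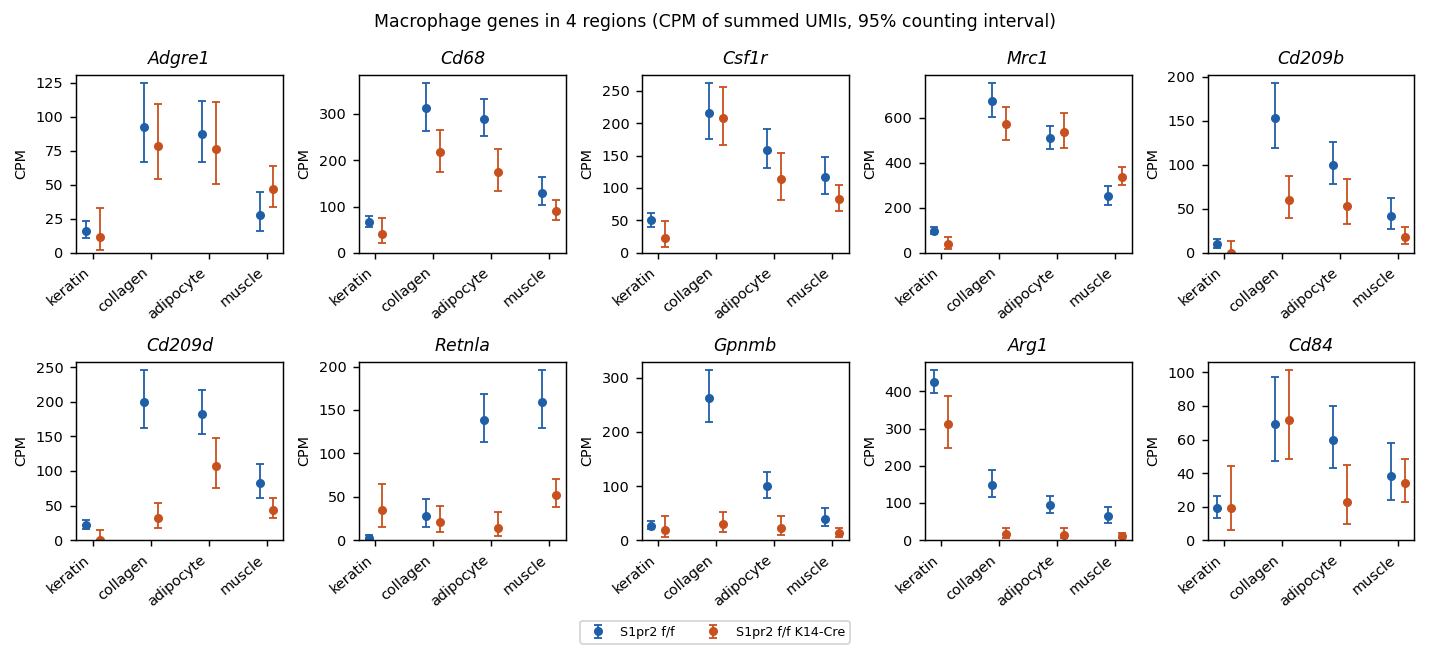
CPM of each of the 10 genes (vertical axes, from 0, one scale per gene) in keratin-rich, collagen-rich, adipocyte-gene-rich and muscle-gene-rich spots, for the *S1pr2 f/f* (blue) and *S1pr2 f/f K14-Cre* section (orange); bars are 95% counting intervals. *Gpnmb* has its collagen-rich peak of 263 CPM in the *S1pr2 f/f* section, where the other section is at 30.0 CPM, and *Arg1* is highest in keratin-rich spots of both.

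Distance from the nearest keratin-rich spot, a scale that needs no marker of the deeper layers, gave the same picture in finer steps. The 3 general genes together had 134 CPM in the keratin-rich spots of the *S1pr2 f/f* section, 308 up to 1 spot spacing away, 400 over 1 to 2 spacings away and 568 over 2 to 3 spacings away, and then 454 and 404 CPM farther in. They had 76.0, 185, 302, 448, 374 and 276 CPM in the *S1pr2 f/f K14-Cre* section, so both profiles had their highest value between 2 and 3 spacings. *Mrc1* had its highest value at the same distance in both, 581 CPM (519 to 649) and 556 CPM (483 to 638).

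*Cd209b* and *Cd209d* together had 289 CPM (245 to 338) at 2 to 3 spacings in the *S1pr2 f/f* section and 106 CPM (75.2 to 145) in the *S1pr2 f/f K14-Cre* section. *Retnla* in the *S1pr2 f/f* section went from 18.8 CPM up to 1 spacing away to 48.0, 105 and then 203 CPM (164 to 248) at 3 to 4 spacings and 140 CPM beyond. Of the other 9 genes, *Cd84* alone had its highest value at that distance in this section (70.6 CPM, 48.6 to 99.1). *Retnla* in the *S1pr2 f/f K14-Cre* section was at 5.22, 12.5, 16.3, 47.1 (27.4 to 75.4) and 49.1 CPM (37.1 to 63.8) over the same steps, the first 3 of them from 2 to 6 UMIs. After *Arg1*, *Gpnmb* had its highest value closest to the surface in the *S1pr2 f/f* section, with 158 CPM already up to 1 spacing away, 184 CPM (152 to 221) over 1 to 2 spacings away and 49.4 CPM beyond 4 spacings, while the 6 steps of the other section lay between 14.9 and 37.4 CPM. *Arg1* had 426, 197, 134, 98.1, 89.9 and 89.3 CPM from the surface inwards in the *S1pr2 f/f* section and 311, 128, 56.1, 16.3, 19.4 and 25.4 CPM in the other.

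**Figure D3:**
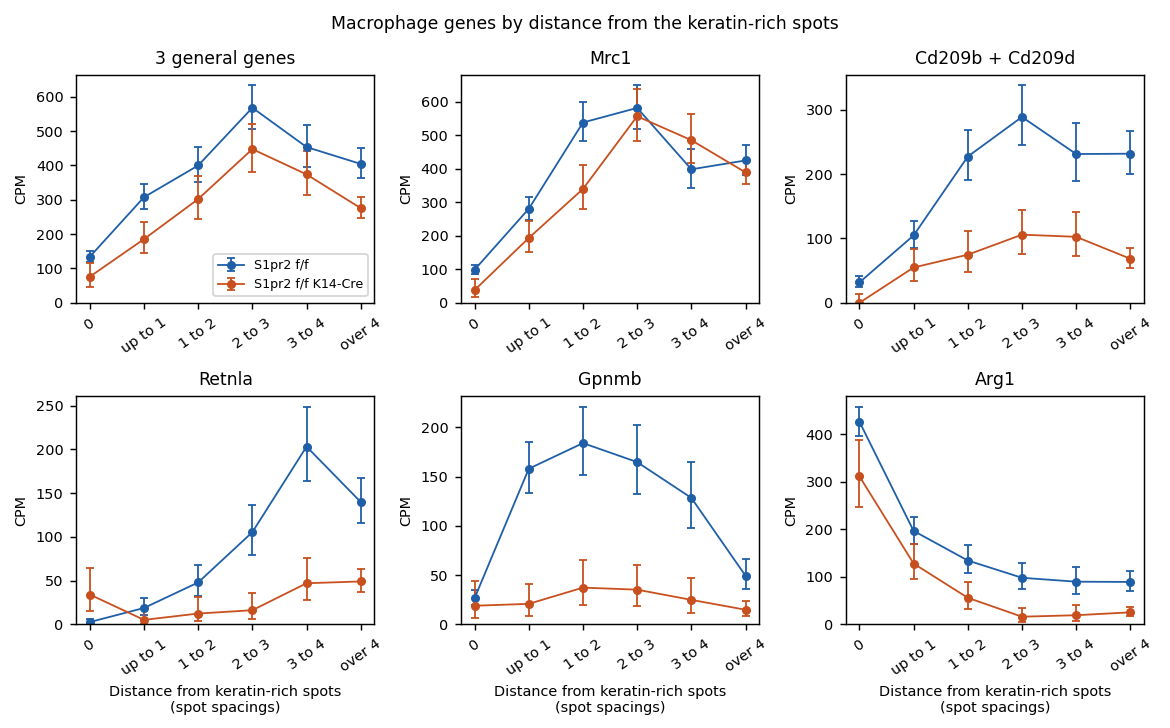
CPM (from 0) of the 3 general genes, *Mrc1*, *Cd209b* plus *Cd209d*, *Retnla*, *Gpnmb* and *Arg1* against distance from the nearest keratin-rich spot in spot spacings, for both sections; bars are 95% counting intervals. General genes and *Mrc1* reach their highest value at 2 to 3 spacings in both sections, *Retnla* at 3 to 4 spacings in the *S1pr2 f/f* section, and *Arg1* in the keratin-rich spots.

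General and resident genes other than *Retnla* tended to be detected in the same spots, which says that they share a place, not a cell. In the *S1pr2 f/f* section 250 of 354 spots with *Csf1r* also held *Mrc1* (70.6%, 65.6 to 75.3), where 44.2% of all spots did. This was 91 of 160 spots in the *S1pr2 f/f K14-Cre* section (56.9%, 48.8 to 64.7), against 37.1% of all spots. For *Cd68* the shares were 67.2% (279 of 415 spots) and 55.5% (116 of 209 spots).

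Spots with a detected gene are deeper than others (median 5481 UMIs for *Csf1r* spots of the *S1pr2 f/f* section and 3427.5 in the other), so the shares were also computed for every spot reduced to 1000 UMIs, which left 978 and 870 spots. Then 32.7% and 29.6% of *Csf1r* spots held *Mrc1*, where 25.1% and 23.4% of all spots did, and for *Cd68* spots the shares were 29.7% and 31.9%. The gap between the sections in the raw shares was thus smaller at equal depth, and for *Cd68* it had the other sign. At that depth the co-detection of a pair was compared with the product of its 2 shares. *Csf1r* with *Cd209b* gave 1.90, *Cd209b* with *Cd209d* 1.81 and *Adgre1* with *Cd209d* 1.80 in the *S1pr2 f/f* section, the 3 highest of its 45 pairs. *Cd209b* with *Cd209d* was also high in the *S1pr2 f/f K14-Cre* section at 2.66, though from 11 spots with both, and the highest there was *Cd209d* with *Gpnmb* at 2.92, from 12 spots. Of the pairs among the general genes, *Mrc1* and both lectins, only *Csf1r* with *Cd209d* in the *S1pr2 f/f K14-Cre* section was under 1, at 0.70.

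At the other end stood *Arg1*, whose 9 pairs were all under 1 in both sections. *Gpnmb* with *Arg1* was the lowest pair of the *S1pr2 f/f* section at 0.50, and *Mrc1* with *Arg1* was 0.69 there and 0.41 in the other. *Retnla* was near 1 with *Mrc1* (1.15 and 1.09) and under 1 with *Cd209b* (0.73) and *Cd209d* (0.83) in the *S1pr2 f/f* section, while in the other it shared only 3 and 2 spots with them. The share of spots with at least 5 of the 7 general and resident genes was 5.30% in the *S1pr2 f/f* section (68 spots, median 6656 UMIs) and 0.510% in the other (5 spots, median 5913 UMIs), without correction for depth. Of the 68 spots, 24 were adipocyte-gene-rich, 18 collagen-rich and 2 keratin-rich.

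**Figure D4:**
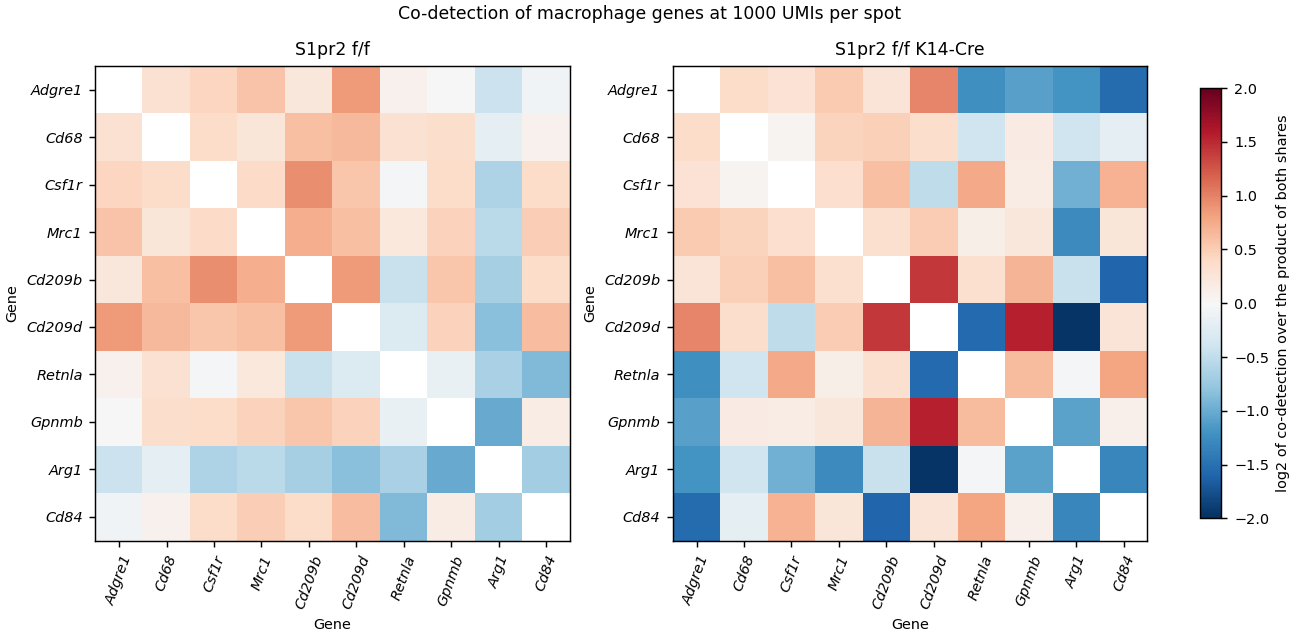
Co-detection of each pair of the 10 genes at 1000 UMIs per spot, as log2 of the share of spots with both genes over the product of their 2 shares (colour, red above and blue below 0), one panel per section. The *Arg1* row is blue, though nearly white with *Retnla* in the *S1pr2 f/f K14-Cre* panel, and *Cd209b* with *Cd209d* is red in both panels; in the *S1pr2 f/f K14-Cre* panel many pairs rest on a few spots.

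Between the sections, over all spots, the macrophage genes fell into those with similar levels and those that were lower in the *S1pr2 f/f K14-Cre* section. Of the 10 genes, 3 were at least 2-fold lower (*Cd209d*, *Gpnmb* and *Arg1*) and 0 at least 2-fold higher, where 4.59% of 18125 genes with at least 20 UMIs were lower and 28.5% higher. All 10 members had at least 100 UMIs over both sections, and among the 10439 genes that did, 6.92% were lower and 6.73% higher. The median log2 ratio was -0.62 over the 10 members, 0.40 over the 18125 genes and 0.01 over the 10439 genes. The 1226 olfactory, vomeronasal, taste and trace amine receptor genes, taken as a background of genes that skin hardly uses, had a mean of 2.21 CPM per gene in the *S1pr2 f/f* and 5.98 CPM in the *S1pr2 f/f K14-Cre* section. *Gpnmb* was lowest against this background, with 4 of the 1226 receptor genes at as many UMIs or more in the *S1pr2 f/f K14-Cre* section and 0 in the other.

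The general genes differed by less than 2-fold over all spots. *Adgre1* was at 43.6 CPM (232 UMIs) in the *S1pr2 f/f* and 55.2 CPM (157 UMIs) in the *S1pr2 f/f K14-Cre* section (log2 ratio 0.34, 0.04 to 0.64), which turns to -0.033 with TMM scaling. *Cd68* was at 160 CPM (848 UMIs) and 124 CPM (353 UMIs), a ratio of -0.36 (-0.55 to -0.18). *Csf1r* was at 111 CPM (590 UMIs) and 103 CPM (292 UMIs), a ratio of -0.11 (-0.32 to 0.09), so its interval includes no difference. The sum of the 3 was lower by a log2 ratio of -0.16 (-0.28 to -0.03), and this rests on *Cd68*, since *Adgre1* and *Csf1r* alone gave 0.029. Inside regions, where the mix of layers is held, *Cd68* was lower in all 4, by ratios of -0.52 to -0.72, and the sum of the 3 by -0.30 to -0.82. The keratin-rich ratio of *Cd68* rests on 11 UMIs in the *S1pr2 f/f K14-Cre* section (-1.73 to 0.20), and the interval of the muscle-gene-rich sum reached 0. *Adgre1* did not follow: its ratios were -0.24 in collagen-rich, -0.19 in adipocyte-gene-rich, 0.75 (-0.12 to 1.69) in muscle-gene-rich and -0.52 in keratin-rich spots, all with intervals that include 0. *Csf1r* had ratios of -0.05 (-0.48 to 0.37) in collagen-rich, -0.49 (-1.05 to 0.04) in adipocyte-gene-rich, -0.49 (-0.99 to 0.01) in muscle-gene-rich and -1.14 (-2.62 to 0.04) in keratin-rich spots, where the *S1pr2 f/f K14-Cre* section held 6 UMIs.

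The resident genes split. *Mrc1* was at 310 CPM (1650 UMIs) and 358 CPM (1018 UMIs), a log2 ratio of 0.20 (0.09 to 0.32) that is -0.17 with TMM scaling, which shifts every gene by -0.37. By region its ratio was -0.24 (-0.49 to 0.00) in collagen-rich, 0.08 (-0.18 to 0.33) in adipocyte-gene-rich, 0.42 (0.13 to 0.71) in muscle-gene-rich and -1.38 (-2.46 to -0.46) in keratin-rich spots, where the *S1pr2 f/f K14-Cre* section held 10 UMIs. *Cd209b* was at 50.0 CPM (266 UMIs) and 26.4 CPM (75 UMIs), and *Cd209d* at 94.6 CPM (503 UMIs) and 43.9 CPM (125 UMIs). Their log2 ratios of -0.93 (-1.31 to -0.55) and -1.11 (-1.40 to -0.82) thus lay side by side, with that of *Retnla* near them and that of *Mrc1* apart.

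Both lectins were lower in each region that could be compared. *Cd209d* in collagen-rich spots was at 200 CPM (93 UMIs) and 32.3 CPM (14 UMIs), 6.21-fold lower in the *S1pr2 f/f K14-Cre* section (log2 ratio -2.63, -3.56 to -1.82), and in adipocyte-gene-rich and muscle-gene-rich spots its ratios were -0.77 (-1.33 to -0.24) and -0.91 (-1.56 to -0.27). *Cd209b* had ratios of -1.35 (-2.06 to -0.68), -0.89 (-1.70 to -0.15) and -1.25 (-2.29 to -0.26) in the same regions. In keratin-rich spots both were at 0 UMIs in the *S1pr2 f/f K14-Cre* section, which against a floor of 3 counts makes their sum at least 2.77-fold lower there. The ratio of resident to general UMIs in the same spots does not depend on the totals. All 4 resident genes together had 1.64 UMIs per UMI of the 3 general genes in both sections. Over all spots this sum hid a shift among its genes, since *Mrc1* had 0.988 and 1.27 UMIs per general UMI, *Cd209b* 0.159 and 0.0935, *Cd209d* 0.301 and 0.156, and *Retnla* 0.195 and 0.118. The shift differed by layer. In collagen-rich spots *Cd209b* and *Cd209d* shifted by log2 ratios of -1.05 (-1.80 to -0.32) and -2.33 (-3.29 to -1.46), while the intervals of *Mrc1* and *Retnla* included 0. In adipocyte-gene-rich and muscle-gene-rich spots *Mrc1* and *Retnla* shifted, while the intervals of both lectins included 0.

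*Retnla* was at 61.1 CPM (325 UMIs) and 33.4 CPM (95 UMIs) over all spots, a log2 ratio of -0.87 (-1.22 to -0.54). It was lower at every distance beyond the keratin-rich spots, as the steps above show, and in mixed spots (114 and 25 UMIs; ratio -1.14, -1.83 to -0.51). Adipocyte-gene-rich spots had 138 and 14.1 CPM (100 and 5 UMIs; ratio -3.29, -4.95 to -2.02) and muscle-gene-rich spots 160 and 52.5 CPM (ratio -1.60, -2.15 to -1.07). The 5 UMIs lay under the 95th percentile of the receptor genes in those adipocyte-gene-rich spots (6 UMIs), so the size of that gap could not be read. In collagen-rich spots *Retnla* was at 28.0 and 20.8 CPM, with an interval from -1.84 to 0.91. In keratin-rich spots 5 UMIs in 318 spots stood against 9 UMIs in 84 spots (ratio 3.65, 1.92 to 5.57), the one place where a member was well above the *S1pr2 f/f* section. There the 5 UMIs of the *S1pr2 f/f* section lay under its receptor percentile (7 UMIs), so the size of this gap could not be read either.

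*Gpnmb* and *Arg1* showed the widest gaps of the 10 over all spots. The ratios of *Retnla* were wider inside adipocyte-gene-rich and keratin-rich spots, but each included a count too low to read. *Gpnmb* was at 96.1 CPM (511 UMIs) and 22.5 CPM (64 UMIs), 4.27-fold lower in the *S1pr2 f/f K14-Cre* section (log2 ratio -2.10, -2.49 to -1.72), with ratios of -3.13 (-4.08 to -2.30) in collagen-rich, -2.14 (-3.41 to -1.08) in adipocyte-gene-rich and -1.64 (-2.82 to -0.54) in muscle-gene-rich spots. *Arg1* was at 234 CPM (1244 UMIs) and 67.8 CPM (193 UMIs), 3.45-fold lower (ratio -1.79, -2.01 to -1.57). In keratin-rich spots, which held 782 of its 1244 UMIs in the *S1pr2 f/f* section and 82 of 193 in the other, the ratio was only -0.45 (-0.80 to -0.12). In mixed spots, which held most of the others, it was 1.46-fold lower (235 and 78 UMIs, 148 and 101 CPM; ratio -0.54, -0.93 to -0.17). *Arg1* was 9.21-fold lower in collagen-rich (69 and 7 UMIs), 6.66-fold lower in adipocyte-gene-rich (68 and 5 UMIs) and 6.28-fold lower in muscle-gene-rich spots (38 and 9 UMIs). The 7 and 5 UMIs lay under the 95th percentile of the receptor genes in the same spots (8 and 6 UMIs). The size of the collagen-rich and adipocyte-gene-rich folds could therefore not be read. *Cd84* was at 40.8 CPM (217 UMIs) and 38.0 CPM (108 UMIs), a ratio of -0.11 (-0.45 to 0.23), and only its adipocyte-gene-rich level passed 2-fold (59.5 and 22.6 CPM; -1.40, -2.70 to -0.29).

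By region, the members at least 2-fold lower were *Cd209b*, *Cd209d*, *Gpnmb* and *Arg1* in collagen-rich spots (4 of 10, against 13% of 8719 genes), *Retnla*, *Gpnmb*, *Arg1* and *Cd84* in adipocyte-gene-rich spots (4 of 10, against 15.6% of 9087 genes), *Cd209b*, *Retnla*, *Gpnmb* and *Arg1* in muscle-gene-rich spots (4 of 10, against 12.7% of 8837 genes) and *Csf1r*, *Mrc1* and *Cd209d* in keratin-rich spots (3 of 8 with enough UMIs, against 21.4% of 9597 genes). A gene at 0 UMIs in 1 section counts as called in these shares. *Cd209d* in keratin-rich spots is such a gene (40 and 0 UMIs), and against the floor of 3 counts it was at least 1.91-fold lower, short of 2-fold. *Csf1r* and *Mrc1* are the 2 that passed on measured levels. The 6 UMIs of *Csf1r* in the *S1pr2 f/f K14-Cre* section only equalled the 95th percentile of the receptor genes there (6 UMIs). Its interval included 0 (-2.62 to 0.04). The counts above also include *Arg1* in collagen-rich spots (7 UMIs in that section) and *Arg1* and *Retnla* in adipocyte-gene-rich spots (5 UMIs each). These lay under the receptor percentiles of 8 and 6 UMIs. No member with at least 20 UMIs in a region was at least 2-fold higher there, where 10.5%, 7.87%, 6.89% and 14.5% of genes were.

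**Figure D5:**
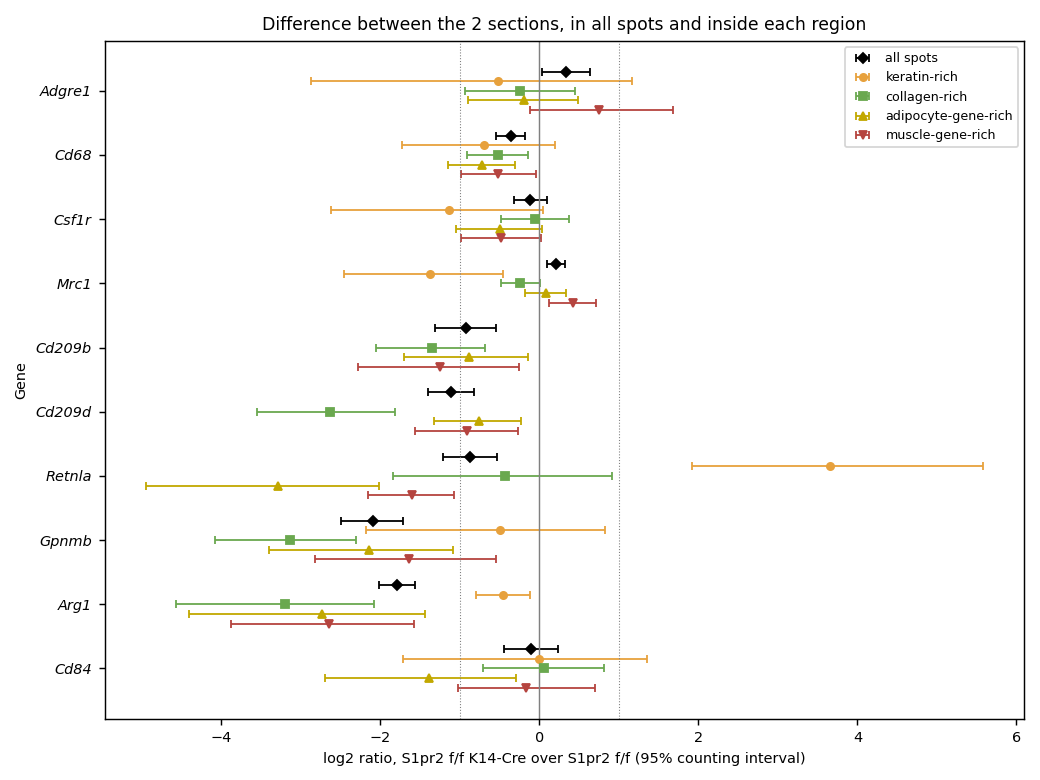
Log2 ratio of CPM, *S1pr2 f/f K14-Cre* over *S1pr2 f/f* section, for each of the 10 genes over all spots (black diamonds) and inside 4 regions (coloured symbols), with 95% counting intervals; dotted lines mark 2-fold. *Gpnmb* lies at -2.10 and *Arg1* at -1.79 over all spots, *Mrc1* and *Cd84* lie near 0, and *Cd209b* and *Cd209d* have no keratin-rich point because one count was 0.

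Fewer macrophages and less of a transcript per macrophage cannot be told apart in such sums, and neither can genotype, animal and place of the cut. Along the length of the section, divided into 4 segments after the data had been seen, *Gpnmb* ranged from 64.5 to 118 CPM in the *S1pr2 f/f* section and from 18.7 to 29.0 CPM in the other, *Arg1* from 96.1 to 392 and from 42.4 to 83.8 CPM, and *Mrc1* from 260 to 398 and from 350 to 373 CPM. *Retnla* ranged from 11.1 to 111 and from 10.2 to 78.2 CPM, and *Cd209b* plus *Cd209d* from 80.5 to 210 and from 48.3 to 107 CPM. The ranges of *Retnla* and of the lectin pair therefore overlapped between the sections, and segments of 1 section are not replicates.

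Other cell types moved beside some of these genes, and their part in the results was not tested. Melanocytes also make *Gpnmb*: the 5 melanocyte markers of the list summed to 164 CPM in collagen-rich spots of the *S1pr2 f/f* section and 99.2 CPM in the other, and to 75.6 and 73.8 CPM over all spots. Spots with a UMI of these markers held 29.7% of the *Gpnmb* UMIs and 20.5% of all UMIs in the *S1pr2 f/f* section, against 21.9% and 14.9% in the other, while for *Mrc1* they held 26.1% of the UMIs in the first and 143 of 1018 UMIs in the other. Neutrophils are abundant phagocytes of IMQ-treated skin: the 7 neutrophil markers, of which *S100a8* and *S100a9* are made by keratinocytes too, summed to 24911 CPM in keratin-rich spots of the *S1pr2 f/f* section and 11329 CPM in the other. The 7 did not go the same way. Over all spots *Csf3r*, *S100a8* and *S100a9* were at least 2-fold lower in the *S1pr2 f/f K14-Cre* section. *Mpo* and *Ly6g* were at least 2-fold higher. At 16 and 20 UMIs, *Ly6g* lay under the 95th percentile of the receptor genes (22 and 34 UMIs), so its level could not be read. With at least 100 UMIs, 4 of the 7 could be tested, of which 3 were lower and 0 higher. By staining, the paper reported more neutrophils in the lower dermis of *S1pr2 f/f K14-Cre* mice. Where *Gpnmb* and *Arg1* were called lower, the sum of the 7 markers was 5768 and 881 CPM in collagen-rich, 5605 and 987 CPM in adipocyte-gene-rich and 3830 and 802 CPM in muscle-gene-rich spots. In collagen-rich spots 3 of the 7 had at least 20 UMIs, of which only *S100a8* and *S100a9* were called lower. *Csf3r* was called lower beside them in adipocyte-gene-rich and muscle-gene-rich spots. Whether neutrophils or keratinocytes gave these UMIs was not tested. The 6 mast cell markers, beside *Cd84*, summed to 127 and 109 CPM over all spots, to 231 and 150 CPM in adipocyte-gene-rich spots, where *Cd84* was called lower (log2 ratio -0.63, -1.10 to -0.17), and to 345 and 175 CPM in collagen-rich spots.

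Over all spots few of the other macrophage genes were called lower, where 28.5% of all genes were higher and 4.59% lower, with a median of 0.40. Of 15 further resident macrophage genes with enough UMIs, 2 were at least 2-fold higher in the *S1pr2 f/f K14-Cre* section and 1 lower, with a median log2 ratio of 0.00. The scavenger receptor *Cd163* was at 167 and 138 CPM, the transglutaminase gene *F13a1* at 382 and 278 CPM, and *Stab1*, another scavenger receptor, at 213 and 196 CPM. Of the *Cd209* family members in this list, *Cd209f* was at 149 and 171 CPM, *Cd209g* at 66.0 and 57.6 CPM and *Cd209a* at 17.9 and 18.3 CPM. *Cd209c* was the one gene of the list called lower (92 and 11 UMIs). Its 11 UMIs lay under the 95th percentile of the receptor genes (34 UMIs), so that level could not be read. *Cd209e*, of the same family, was higher (47 and 57 UMIs). Since the probes of these near copies were not examined, UMIs of one could have been read from another. In collagen-rich spots 4 of 10 were lower, *Cd163*, *F13a1*, *Cbr2* and *Cd209g*, against 13% of all genes, and the median was -0.91 against -0.06. The other layers did not follow. In adipocyte-gene-rich spots 1 of 12 was lower, against 15.6% of all genes, with a median of -0.12 against -0.13. In muscle-gene-rich spots 0 of 9 were lower, against 12.7%, and 1 was higher (*Lyve1*), with a median of -0.28 against -0.13.

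Of 21 further general macrophage and myeloid genes, 2 were at least 2-fold higher (*Cd14* and *Cx3cr1*) and 0 lower. The list median of 0.32 lay below the 0.40 of all genes with at least 20 UMIs. Among genes with at least 100 UMIs this order turned, with a median of 0.32 over 20 of the 21 and 0.01 over all genes. Of these 20 genes, 2 were higher and 0 lower, where 6.73% of all genes were higher and 6.92% lower. The complement gene *C1qa* was at 494 and 813 CPM, *C1qb* at 338 and 404 CPM, *Aif1* at 125 and 205 CPM and *Spi1*, which encodes PU.1, at 73.2 and 91.4 CPM. Other genes of the list went the other way: *Laptm5* was at 259 and 162 CPM, *Mertk* at 50.8 and 36.2, *Sirpa* at 158 and 136 and *Tyrobp* at 165 and 154 CPM. Inside regions *Laptm5* was called lower in adipocyte-gene-rich and muscle-gene-rich spots, and *Mertk* in collagen-rich and muscle-gene-rich spots. The 21 genes summed to 3560 and 4444 CPM, above in the *S1pr2 f/f K14-Cre* section where the 3 general members were not. With the TMM shift of -0.37 the sign of this log2 ratio of 0.32 would turn. By region the ratio was 0.35 (0.28 to 0.42) in collagen-rich and 0.31 (0.23 to 0.39) in muscle-gene-rich spots. The TMM shifts there, -0.11 and 0.10, leave its sign. It was -0.15 (-0.23 to -0.07) in adipocyte-gene-rich spots, and in keratin-rich spots the sum was 1417 and 1041 CPM. *Lyz2* had 22 UMIs in each section, where the 95th percentile of the receptor genes was 22 and 34 UMIs, so its level could not be read. Of 6 monocyte genes 1 passed 2-fold, *Chil3*, but at 9 and 20 UMIs it lay under both of these percentiles and could not be read either, while *Ccr2*, the receptor that brings monocytes into tissue, was at 144 and 176 CPM.

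The genes of alternative activation summed to 1162 and 1194 CPM (log2 ratio 0.04, -0.02 to 0.10) and those of classical activation to 149 and 193 CPM (0.37, 0.21 to 0.53), the latter a ratio that the TMM shift of -0.37 would bring to about 0. The receptor genes were also higher, with a mean of 2.21 and 5.98 CPM per gene, and these sums still hold that background. How much of the higher sum of classical activation is background was not tested, so it is not read as a difference. The sum of alternative activation includes *Arg1* (234 and 67.8 CPM), which held 782 of its 1244 UMIs in keratin-rich spots of the *S1pr2 f/f* section. The ratio of 0.04 over all spots thus also carries this gene and the mix of layers. Inside collagen-rich, adipocyte-gene-rich and muscle-gene-rich spots the ratio of this sum was -0.29 (-0.44 to -0.14), -0.003 (-0.15 to 0.14) and 0.09 (-0.05 to 0.23). Of 15 genes of alternative activation 3 were at least 2-fold higher (*Chil3*, *Pdcd1lg2* and *Tgm2*) and 2 lower (*Arg1* and *Pparg*). Of 15 genes of classical activation 3 were higher (*Il23a*, *Cxcl9* and *Ptgs2*) and 0 lower. Among all genes with at least 20 UMIs, 28.5% were higher and 4.59% lower. With at least 100 UMIs, 1 of 10 genes of alternative activation was higher and 2 lower, against 6.73% and 6.92% of all genes. Only 2 genes of classical activation could then be tested, so how the lists stand against all genes depends on the minimum. *Tgm2*, a transglutaminase, was at 94.3 CPM (501 UMIs) and 258 CPM (735 UMIs), but *Pdcd1lg2*, *Il23a*, *Cxcl9* and *Ptgs2* had 13 to 28 UMIs in the *S1pr2 f/f* section and 41 to 57 in the other. The former range spans the receptor percentile of 22 UMIs, and the latter lies above that of 34 UMIs. *Il1b* was at 103 and 39 UMIs, and *Nos2*, the classical counterpart of *Arg1* for arginine, at 17 and 17 UMIs, under the receptor percentiles. Of 13 genes of lipid-associated macrophages, which include *Gpnmb*, 2 were higher (*Trem2*, 29 and 32 UMIs, the second under the receptor percentile of 34, and *Spp1*, 33 and 53 UMIs) and 2 lower (*Gpnmb* and *Lgals3*), while *Apoe* was at 626 and 766 CPM. The 13 genes summed to 15194 and 16821 CPM in keratin-rich spots and to 10085 and 6733 CPM in collagen-rich ones. Their levels over all spots thus also carry the keratin-rich share. *Lgals3* was called lower inside collagen-rich and muscle-gene-rich spots too. Of the 7 ligands, *Il34*, the keratinocyte-made ligand of *Csf1r*, was at 21.6 CPM (115 UMIs) and 4.92 CPM (14 UMIs). The second value lay under the receptor percentile of 34 UMIs, so that level could not be read. *Csf1* was at 13.5 and 13.7 CPM, and *Il4* and *Il13* at 18 to 22 and 13 to 19 UMIs, within the receptor percentiles.

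Genes whose pattern was most like the macrophage genes were ranked by correlation over tiles of the sections (50 and 43 tiles of 6 rows by 12 columns), a description of shared place. *Selenop*, *Apod*, *Timp2*, *Fth1* and *Pcolce* were most like the summed resident genes, with the lower of both r between 0.68 and 0.71, out of 2787 genes with at least 200 UMIs in each section. *Col3a1*, *Psap*, *Selenop*, *Loxl1* and *Sparc* were most like the summed general genes (0.66 to 0.73). Among the members themselves *Mrc1* went with the general genes at r of 0.77 and 0.55, *Retnla* at 0.08 and -0.25, and *Arg1* at -0.32 and -0.28. *Cd209d* did so at 0.72 in the *S1pr2 f/f* section and at 0.05 in the other, where it was counted at 125 UMIs in all.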

How the data were processed

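Spatial sequencing counts of 2 skin sections, each 10 μm thick, were analysed, 1 per genotype. Per the files the authors deposited, the unit is UMI counts of every gene in every spot over tissue, before any normalization, with array positions. The headers name Space Ranger 3.0.0, and the labels' processing notes name mm10. The probe set is not given in the sources used here. RT-qPCR, flow cytometry and histology were not analysed here.

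UMIs were summed over spots and divided by all UMIs of the same spots (CPM). Intervals of 95% (exact Poisson for CPM, conditional binomial for ratios of CPM, Clopper-Pearson for shares of spots) cover counting error only. With 1 section per genotype no p-value is given, and a call means at least 2-fold in genes with at least 20 UMIs. A count of 0 was taken to allow 3 counts. Gene pairs were set side by side in each spot, also with each spot reduced to 1000 UMIs by expected value.

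Regions came from 16 keratinocyte, 9 collagen-rich, 8 adipocyte, 12 muscle and 8 hair genes: for each spot with at least 500 UMIs, the list with the highest share of UMIs over its share in both sections pooled with equal weight, if that ratio was at least 1.5 from at least 3 UMIs. Clusters were not used. The 357 spot barcodes that both sections share are array positions, not cells. The members and lists were chosen with earlier results of these data known. Named genes were the 10 members, *S1pr2*, genes of the lists with at least 20 UMIs, and the 5 most similar in pattern to the resident and to the general sum over tiles. The alternatives were scaling by TMM (edgeR 4.0.16, run under R 4.3.3), the mean over spots of CPM, the receptor background taken off each gene, other spot, region and gene minima, distance in place of markers, and sums without their most abundant gene. Scripts ran in Python 3.11.15 with scipy 1.17.1 and were tested on simulated data.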

Additional observations from a re-analysis of the deposited data

Results flagged for a closer look

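*Retnla* had layer ratios of opposite sign in the 2 sections, but those of the *S1pr2 f/f K14-Cre* section lay within counting error of 0. The difference between the sections was not tested, because each genotype has 1 section. Collagen-rich over keratin-rich spots gave a log2 ratio of 3.36 (95% interval 1.78 to 5.20) in the *S1pr2 f/f* and -0.72 (-2.23 to 0.79) in the *S1pr2 f/f K14-Cre* section. Adipocyte-gene-rich over keratin-rich spots gave 5.67 (4.40 to 7.32) and -1.27 (-3.20 to 0.46). Adipocyte-gene-rich over collagen-rich spots gave 2.30 (1.47 to 3.26) and -0.55 (-2.48 to 1.18). The *S1pr2 f/f K14-Cre* values rest on 9 UMIs in keratin-rich, 9 in collagen-rich and 5 in adipocyte-gene-rich spots, and all 3 of their intervals include 0. The 5 UMIs lay under the 95th percentile of the receptor genes in those spots (6 UMIs). The sign of the adipocyte-gene-rich ratios of that section could therefore not be read. In the *S1pr2 f/f* section the keratin-rich value rests on 5 UMIs, under the receptor percentile of those spots (7 UMIs). The size of the 3.36 and 5.67 over keratin-rich spots could therefore not be read either.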

How the results depend on the processing

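Of 384 recomputed values, 330 moved by less than their counting interval, 51 moved further and 3 turned sign. With TMM scaling, *Adgre1* over all spots turned to -0.033 and *Mrc1* to -0.17, and the general and resident sums went to -0.53 each. These changes are the shift of -0.37 that TMM scaling gives every gene over all spots, and the cause of that shift was not tested. Over all spots, the general sum turned to 0.029 without *Cd68*, and was -0.29 as a mean over spots, and the resident sum was -0.99 without *Mrc1*. The log2 ratio of resident to general genes, K14-Cre over *S1pr2 f/f*, went from -0.01 to -0.83 without *Mrc1* and to -0.19 without *Cd68*. The layer ratio of the general genes was 1.79 by distance in the *S1pr2 f/f* section and 3.50 with a region ratio of at least 2 in the *S1pr2 f/f K14-Cre* section, and that of the resident genes in the *S1pr2 f/f* section was 2.69 and 3.65 in the same order. Co-detection at 1000 UMIs per spot was 32.7% and 29.6% for *Mrc1* in *Csf1r* spots and 29.7% and 31.9% in *Cd68* spots, and with at least 2 UMIs of the first gene 76.3% and 65.8%, and 71.8% and 70.1%. With a minimum of 100 UMIs, 6.73% of genes were at least 2-fold higher and 6.92% lower. The genes higher were 1 of the wider resident, 2 of the wider general and 1 of the alternative activation list. They were 0 of the classical activation, 0 of the lipid-associated and 0 of the monocyte list, with fewer genes tested in each list. No paired analysis was possible because each genotype has 1 section. Receptor background, the 500 and 1000 UMI minima and the connected groups moved no summed result beyond its interval. Depth limits the *S1pr2 f/f K14-Cre* section, where regional counts of *Retnla*, *Gpnmb*, *Arg1* and both lectins are often under 20 UMIs.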
